A study of Danio rerio with 15 samples.

Results

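The genes described here make the black pigment of zebrafish and build the organelle that holds it: tyr, dct, tyrp1a and tyrp1b, pmela, slc24a5, slc45a2, oca2 and mitfa. Rows of the count table were chosen by gene name, and where the table of names writes a gene in capitals without its copy letter, every row of that name was taken. The 9 names matched 10 of 32520 rows, written TYR, DCT, TYRP1 (2 rows), pmela, SLC24A5, SLC45A2, OCA2 and MITF (2 rows). The names do not say which TYRP1 row is tyrp1a or tyrp1b, nor which MITF row is mitfa, so these rows are called TYRP1-56151, TYRP1-29204, MITF-03732 and MITF-37833 by the last digits of their identifiers. RNA came from whole larvae of wild-type zebrafish at 5 days post fertilization, in 15 libraries, 5 from each of 3 parental diets. Parents ate blackworms for 60 days at 3.5% of body weight. The worms had been kept for 14 days in water with sodium arsenite at 0 (Control), 2.5 (Low) or 5.0 mg/L (High), and held less than 0.05 µg/g arsenic by dry weight in Control and 72.47 µg/g in High. Worms of the Low diet held 32.4 µg/g by the label of the samples, or 33.42 µg/g by the protocol. The larvae of all groups were kept in medium free of arsenic. A count of 20 larvae is named, but not whether each library pooled them. Nothing says that libraries of a group came from separate clutches, and the spread behind every p is that of these samples alone, which may be technical.

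Melanin is made inside melanosomes, organelles related to lysosomes. Tyrosinase (tyr) starts the pathway by oxidising tyrosine, and dopachrome tautomerase (dct) and the tyrosinase-related protein 1 copies act on later intermediates. The product of pmela forms the fibrils on which melanin is laid down, while slc24a5, slc45a2 and oca2 encode transporters that set the ion content and acidity of the melanosome. The transcription factor mitfa directs neural crest cells to become melanophores, the black pigment cells of the skin. The retinal pigment epithelium at the back of the eye also makes melanin with the same enzymes, so counts from whole larvae add both sources together. In such bulk samples fewer pigment cells and less RNA per cell cannot be told apart.

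Libraries held between 21.2 M and 59.9 M counts (M, mega), with most in Control 5. Levels are given in CPM, counts scaled to 1 M of the TMM-adjusted library total. Levels are not compared between genes, because transcript lengths were not used here. The libraries of a group were not alike: in DCT, TYRP1-56151 and pmela, Control 3 and Control 5 stood above the other Control libraries, and High 3 below the other High libraries. Digestive transcripts also varied between libraries. The mean log2 CPM of 30 pancreas, liver and intestine genes was 0.62 in Control 3 and -0.35 in Control 5, against 8.16 in Control 2 and 5.57 in Control 4. In High it was -0.46 in High 3 and 3.96 to 7.81 in the rest, and among Low libraries Low 5 stood at 7.26, the rest at -1.23 to 1.84.

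Among the enzymes, DCT (ENSDARG00000006008) ranged from 6.12 to 48.3 CPM. It had 9.10, 9.57, 41.4, 10.3 and 41.7 CPM in Control 1 to 5. In Low 1 to 5 it had 6.12, 6.54, 9.32, 11.9 and 7.45 CPM, and in High 1 to 5 it had 40.4, 27.1, 6.57, 48.3 and 43.2 CPM. The 6 high libraries were Control 3, Control 5 and all of High but High 3. The other 9 lay at or below the highest Low library. No value fell between 11.9 and 27.1 CPM. The coefficient of variation within a group was largest in Control, at 78.0%, followed by High at 50.7% and Low at 28.6%.

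TYRP1-56151, one of the copies of tyrosinase-related protein 1, had 28.9, 23.8, 67.5, 37.7 and 63.8 CPM in Control 1 to 5. The Low libraries 1 to 5 had 21.7, 22.7, 24.1, 27.3 and 33.5 CPM, and in High 1 to 5 it had 57.1, 43.0, 18.3, 68.2 and 57.1 CPM. Its highest 6 libraries were the same 6 as for DCT. The other copy, TYRP1-29204, was more even, with 5.15 to 9.71 CPM in Control, 3.95 to 8.43 in Low and 2.79 to 9.83 in High, and 4 of those 6 libraries were among its own highest 6. Its lowest value was again in High 3. Reads from copies of one gene may be shared between them, so the split between the TYRP1 rows is uncertain.

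TYR, the first enzyme, was counted with 19 to 193 reads per library. It had 0.940, 1.32, 2.77, 2.35 and 3.12 CPM in Control 1 to 5. Low 1 to 5 had 0.781, 1.36, 1.27, 1.69 and 2.18 CPM, and in High 1 to 5 it had 1.72, 2.93, 1.07, 4.46 and 3.93 CPM. The 3 groups overlapped, with High 4 and High 5 above every other library and Low 1 lowest.

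**Figure D1:**
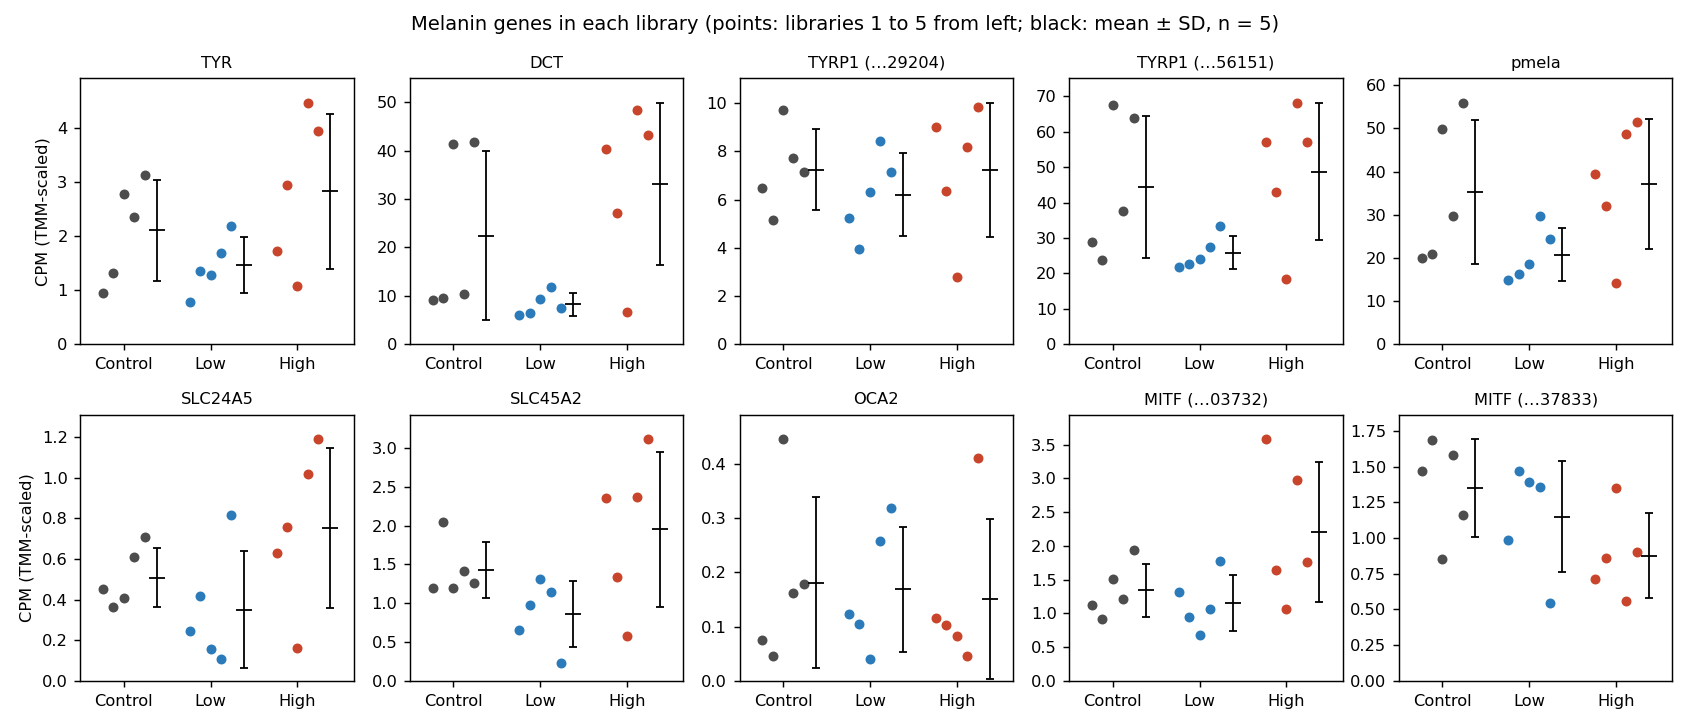
Level of each melanin gene row in CPM (vertical axes, linear, each panel with its own scale) for libraries 1 to 5 of Control, Low and High; points are libraries and the black marks give the mean ± SD (n = 5). DCT, TYRP1-56151 and pmela show Control 3 and Control 5 near the level of the High libraries, and High 3 near the level of Low.

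The fibril gene pmela (ENSDARG00000091298) was high in the same libraries. It had 20.0, 21.0, 49.8, 29.7 and 56.0 CPM in Control 1 to 5. Across Low 1 to 5 there were 14.9, 16.3, 18.7, 29.7 and 24.3 CPM, and in High 1 to 5 it had 39.4, 32.0, 14.1, 48.7 and 51.6 CPM. Its highest 6 libraries were those highest in DCT, although Control 4 and Low 4, at 29.7 CPM each, came close to the lowest of them.

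The transporter genes were read at low depth. SLC45A2 (ENSDARG00000002593), with 5 to 82 reads per library, had 1.20, 2.05, 1.20, 1.42 and 1.26 CPM in Control 1 to 5. Low libraries, in order, had 0.658, 0.980, 1.31, 1.14 and 0.227 CPM, and in High 1 to 5 it had 2.35, 1.34, 0.575, 2.37 and 3.11 CPM. Control 3 and Control 5 were not raised here, unlike for DCT. SLC24A5 (ENSDARG00000024771), with 3 to 44 reads, ran from 0.364 to 0.711 CPM in Control, from 0.110 to 0.818 in Low and from 0.164 to 1.19 in High. The range in Low contained the whole Control range, with Low 5 at the top. OCA2 (ENSDARG00000061303) had 1 to 13 reads per library and 72 in all, too few to pass the filter on low counts, and was not tested in the main fit. Its values ran from 0.0456 to 0.445 CPM in Control, 0.0396 to 0.318 in Low and 0.0464 to 0.410 in High, and these ranges overlapped. At this depth the values say little about a difference between diets.

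The MITF rows differed from each other. MITF-03732 had 1.13, 0.911, 1.51, 1.22 and 1.94 CPM in Control 1 to 5. Its values in Low 1 to 5 were 1.32, 0.945, 0.674, 1.06 and 1.77 CPM, and in High 1 to 5 it had 3.58, 1.65, 1.07, 2.97 and 1.76 CPM. High 1 and High 4 were above all other libraries, and 5 of the 6 libraries highest in DCT were among its own highest 6. MITF-37833 had 0.855 to 1.69 CPM in Control, 0.545 to 1.47 in Low and 0.557 to 1.35 in High, and 0 of those 6 libraries were among its highest 6. High 3 was the highest High library for MITF-37833 and the lowest for MITF-03732.

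Against Control, larvae of Low parents had lower fitted levels of all 9 tested rows, but none passed the test. With p from edgeR's quasi-likelihood test, adjusted by Benjamini-Hochberg over 22012 genes, 0 of 9 passed, against 0% of all genes. The ranges of all 9 overlapped, and those of 1.31% of all genes did not. At an unadjusted p below 0.05 there were 2 rows, DCT and TYRP1-56151, against 9.53% of all genes. DESeq2 called 0 of the rows, against 0.225% of all genes, and limma voom 0, against 6.5%. The median log2 fold change was -0.57 over the 9 rows and 0 over all genes, of which 49.6% were below 0. For DCT the Control mean was 22.4 ± 17.5 CPM and the Low mean 8.26 ± 2.36 (SD, n = 5). Its log2 fold change was -1.44, with SE 0.56 and an edgeR adjusted p of 0.47. All 5 Low libraries were below the Control mean of DCT, yet they overlapped Control 1, 2 and 4. TYRP1-56151, at 44.3 ± 20.1 CPM and 25.8 ± 4.76, differed by -0.78 on the log2 scale (SE 0.34, edgeR adjusted p = 0.49). For pmela, at 35.3 ± 16.7 and 20.8 ± 6.17 CPM, the difference was -0.77 (SE 0.36, edgeR adjusted p = 0.53). The remaining 6 rows had log2 fold changes of -0.71 (SLC45A2) to -0.22 (MITF-37833 and TYRP1-29204).

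Between High and Control the fitted differences were small beside the spread of the libraries. Of 9 tested rows 0 passed edgeR's test, against 0.522% of all genes, and 0 had an unadjusted p below 0.05, against 15.8% of all genes. No row had ranges that did not overlap, against 4.41% of all genes. DESeq2 called 0 of the rows, against 3.18% of all genes, and limma voom 0, against 1.25%. The median log2 fold change was 0.41 over the rows and -0.02 over all genes. There were 7 rows above 0 and 2 below, while 52.1% of all genes were below 0. DCT had 33.1 ± 16.8 CPM in High, and its log2 fold change against Control was 0.56 (SE 0.55, edgeR adjusted p = 0.68). For pmela, at 37.2 ± 15.1 CPM in High, it was 0.07 (SE 0.36), and for TYRP1-56151, at 48.7 ± 19.2 CPM, it was 0.14 (SE 0.34). The MITF rows had the smallest p and opposite signs, at 0.71 (SE 0.34, edgeR adjusted p = 0.32) for MITF-03732 and -0.61 (SE 0.30, edgeR adjusted p = 0.34) for MITF-37833.

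**Figure D2:**
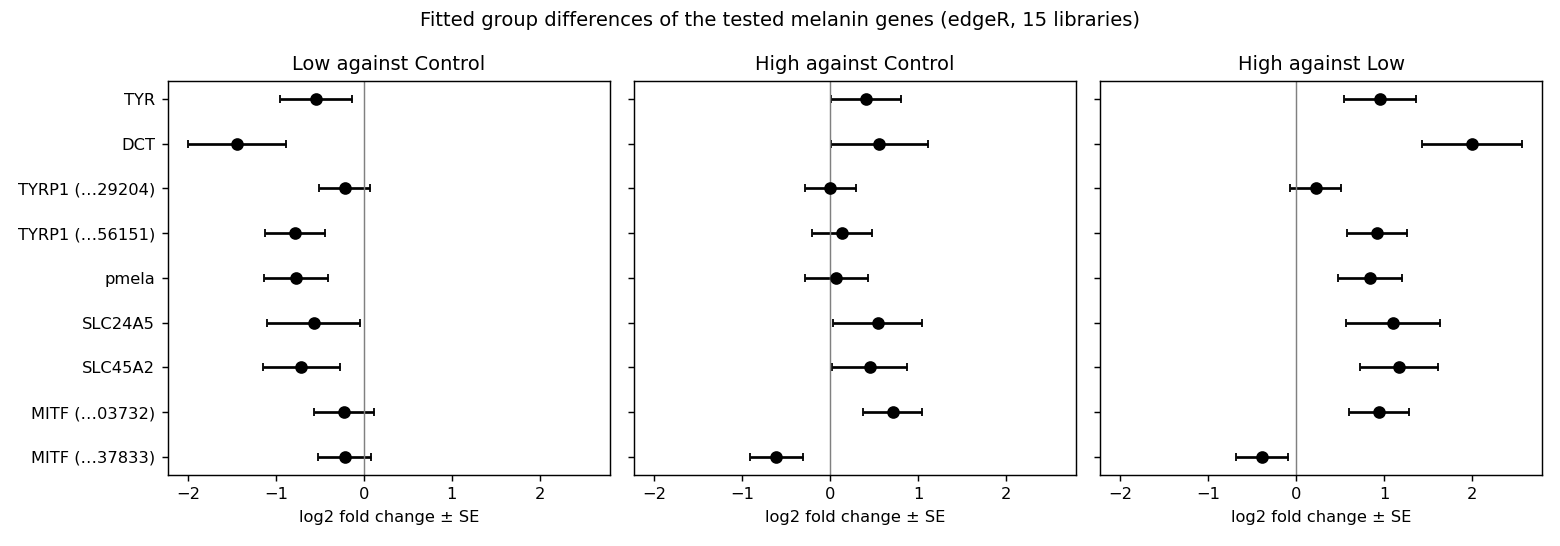
Fitted log2 fold change with its SE (horizontal axis) of the 9 tested rows in the 3 comparisons, from 1 edgeR fit to all 15 libraries. In High against Low 8 of 9 rows lie above 0 with DCT farthest, at 2.00, and in Low against Control all lie below 0.

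High and Low differed most. Against Low, larvae of High parents had higher fitted levels of 8 of 9 rows, while 51.7% of all genes were below 0. The median log2 fold change was 0.94 over the rows and -0.01 over all genes. However, 0 of 9 passed edgeR's test, against 1.71% of all genes. All 9 ranges overlapped, while 4.31% of all genes had ranges that did not. An unadjusted p below 0.05 was reached by 6 rows, against 21.9% of all genes, namely DCT, MITF-03732, TYRP1-56151, SLC45A2, TYR and pmela. DCT differed by 2.00 on the log2 scale (SE 0.57, edgeR adjusted p = 0.081) and was above the Low mean in 4 of 5 High libraries. SLC45A2 followed with 1.17 (SE 0.44, edgeR adjusted p = 0.14), SLC24A5 with 1.1 (SE 0.53, adjusted p = 0.24) and TYR with 0.95 (SE 0.41, adjusted p = 0.2). MITF-03732 had 0.94 (SE 0.34, edgeR adjusted p = 0.13), TYRP1-56151 had 0.92 (SE 0.34, adjusted p = 0.14) and pmela 0.84 (SE 0.36, adjusted p = 0.2). TYRP1-29204 lay at 0.22 (SE 0.29) and MITF-37833 at -0.39 (SE 0.30). DESeq2 called 1 row, DCT, against 5.7% of all genes, and limma voom with sample weights called 4, against 21.2% of all genes. The 3 comparisons share their libraries in pairs, so these values are not independent of each other.

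With 1 library left out, DCT passed edgeR's test only without High 3. DESeq2 (adjusted p = 0.012) and limma voom (adjusted p = 0.034) called DCT with High 3 included. Without High 3 the log2 fold change of DCT against Low was 2.26 (SE 0.49, edgeR adjusted p = 0.038), in a fit where 2.4% of all genes passed. The lowest remaining High library, at 27.1 CPM, lay above the highest Low library, at 11.9 CPM. High 3, at 6.57 CPM, was the only High library within the Low range of DCT. Leaving it out therefore fixed that separation, which is only a description. In the other 9 fits that left out 1 library DCT did not pass, at edgeR adjusted p of 0.054 to 0.17. Over all 10 its log2 fold change stayed between 1.84 and 2.26. Over all alternatives run, the DCT value ran from 1.56 to 2.33. Without Low 5, the Low library rich in digestive transcripts, 2 other rows passed edgeR's test, MITF-03732 at 1.14 (adjusted p = 0.041) and SLC24A5 at 1.65 (adjusted p = 0.042). In that fit 17% of all genes passed. Low 5 was also the highest Low library for both rows, at 1.77 CPM for MITF-03732 and 0.818 CPM for SLC24A5. Leaving Low 5 out therefore widened both differences, which is only a description.

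**Figure D3:**
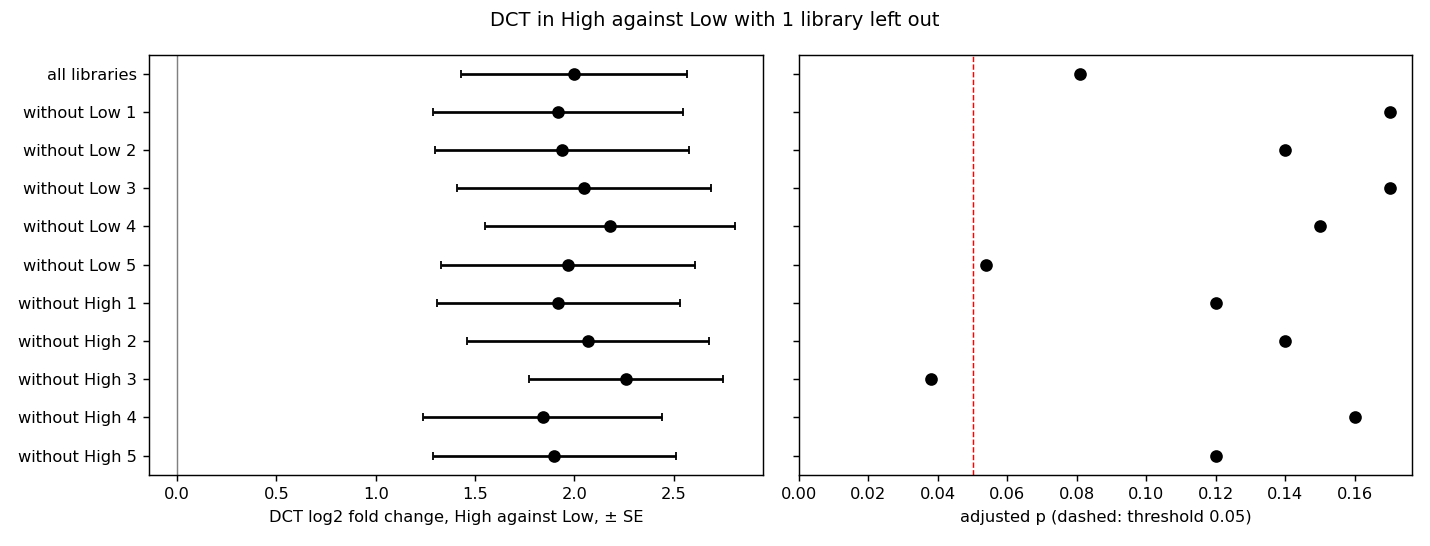
Log2 fold change of DCT in High against Low with its SE (left) and its edgeR adjusted p (right, threshold 0.05 dashed), with all 15 libraries and with each of the 10 libraries left out. The adjusted p crosses the threshold without High 3, at 0.038.

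The ratio of DCT to TYRP1-56151 reads differed between libraries. For every read of TYRP1-56151, DCT had 0.315, 0.402, 0.614, 0.272 and 0.653 reads in Control 1 to 5. In Low 1 to 5 the ratio was 0.282, 0.289, 0.387, 0.435 and 0.223, and in High 1 to 5 it was 0.707, 0.629, 0.360, 0.708 and 0.756. The 6 libraries highest in DCT had ratios of 0.614 to 0.756 and the other 9 had 0.223 to 0.435; DCT itself set that split, so the gap is a description. The ratio of pmela to TYRP1-56151 reads did not separate the same libraries, with 0.689 to 0.905 in those 6 and 0.684 to 1.09 in the other 9. Because DCT set the split, this contrast with pmela is a description too. Such ratios within a library do not depend on the scaling of library totals.

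**Figure D4:**
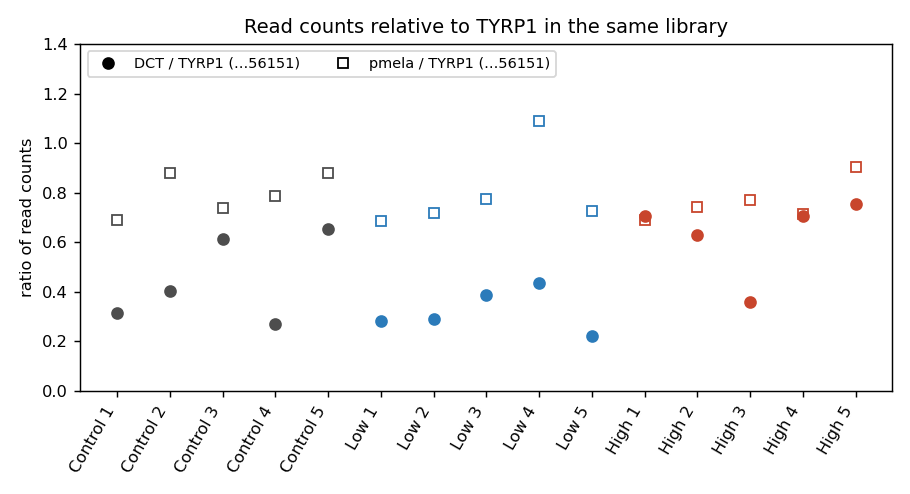
Reads of DCT (filled circles) and pmela (open squares) per read of TYRP1-56151 in each library (vertical axis, linear), coloured by group. Control 3, Control 5 and all High libraries but High 3 lie at 0.614 or above for DCT, while pmela lies between 0.684 and 1.09 throughout.

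The genes whose pattern over the 15 libraries was most like the mean standardised log2 CPM of the tested rows included several genes of the pigment epithelium. Among 14785 other genes with an informative symbol and a mean log2 CPM of at least 1, the highest Pearson r belonged to pmelb, the second zebrafish copy of the fibril gene, at 0.92. The next were rgrb, an opsin-related gene, and rlbp1b, a retinaldehyde carrier, at 0.88 each, then HOXB2 and RPE65 at 0.87. RPE65 encodes the isomerase of the visual cycle. DLL1, a Notch ligand, had 0.86, and OPN4, a melanopsin, and HOXC4 had 0.85 each. The libraries share depth and tissue content across genes, so these values only rank likeness.

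RPE65 (ENSDARG00000007480) had 4.40, 4.78, 20.4, 6.08 and 21.3 CPM in Control 1 to 5. In Low 1 to 5 it had 5.30, 4.13, 5.39, 5.90 and 3.77 CPM, and in High 1 to 5 it had 56.1, 31.9, 6.07, 74.0 and 68.4 CPM. Its highest 6 libraries were those highest in DCT, with 20.4 to 74.0 CPM in them and 3.77 to 6.08 CPM in the other 9. Because RPE65 was among the genes most like the melanin rows, DCT included, this sharing is only a description. Unlike DCT, RPE65 had a level in 4 High libraries above that in Control 3 and Control 5.

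RPE65 passed edgeR's test in High against Low, with a log2 fold change of 3.27 (SE 0.64, adjusted p = 0.027), but kept the call in only 2 of 10 fits without 1 library. It was lost without Low 1, 2, 3 or 4 and without High 1, 2, 4 or 5, at adjusted p of 0.051 to 0.083. In High against Control it had 2.05 (SE 0.61, adjusted p = 0.12), and 0.037 as adjusted p without High 3. High 3, at 6.07 CPM, was the only High library within the Control range, which reached 21.3 CPM. The next lowest High library had 31.9 CPM. Leaving High 3 out therefore fixed that separation, which is only a description. The other 2 RPE65 rows, at 0.880 to 4.87 CPM, did not follow the pattern of the row described here.

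Of the whole list of pigment epithelium markers, 17 of 18 rows were tested. In High against Low 1 passed and was higher, against 0.672% of all genes higher. In that comparison 14 of 17 had log2 fold changes above 0, while 51.7% of all genes were below 0. There 9 had an unadjusted p below 0.05, against 21.9% of all genes, and the median was 0.51. In High against Control 0 passed and 4 had an unadjusted p below 0.05, against 15.8% of all genes, with a median of 0.31. In Low against Control 0 passed and 1 had an unadjusted p below 0.05, against 9.53% of all genes, with a median of -0.20. The medians of all genes were -0.01, -0.02 and 0 in High against Low, High against Control and Low against Control. The summed level of the list was 180 to 290 CPM in Control, 162 to 191 in Low and 169 to 371 in High. It was highest in the 6 libraries highest in DCT, at 226 to 371 CPM. That sum includes RPE65 (ENSDARG00000007480), rlbp1b and rgrb, which were among the genes most like the melanin rows. Of the 226 CPM in High 2 these rows held 31.9, 33.3 and 27.7 CPM. The order of the libraries is therefore not shown for the rest of the list. None of the 8 rows of the list's defining markers was at 0 in any library. However, STRA6, one of these markers, had only 1 to 20 reads per library and was not tested. What part these transcripts have in the spread of the melanin genes was not tested.

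The second fibril gene, pmelb (ENSDARG00000033760), had 12.6, 9.88, 50.3, 20.0 and 52.7 CPM in Control 1 to 5. Low libraries ran from 7.40 to 13.3 CPM, and in High 1 to 5 it had 40.1, 27.7, 9.77, 44.6 and 35.3 CPM. It separated the same 6 libraries from the rest. Because pmelb ranked highest in likeness to the melanin rows, DCT included, that separation is only a description. The log2 fold change of pmelb in High against Low was 1.65 (SE 0.49, edgeR adjusted p = 0.088).

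**Figure D5:**
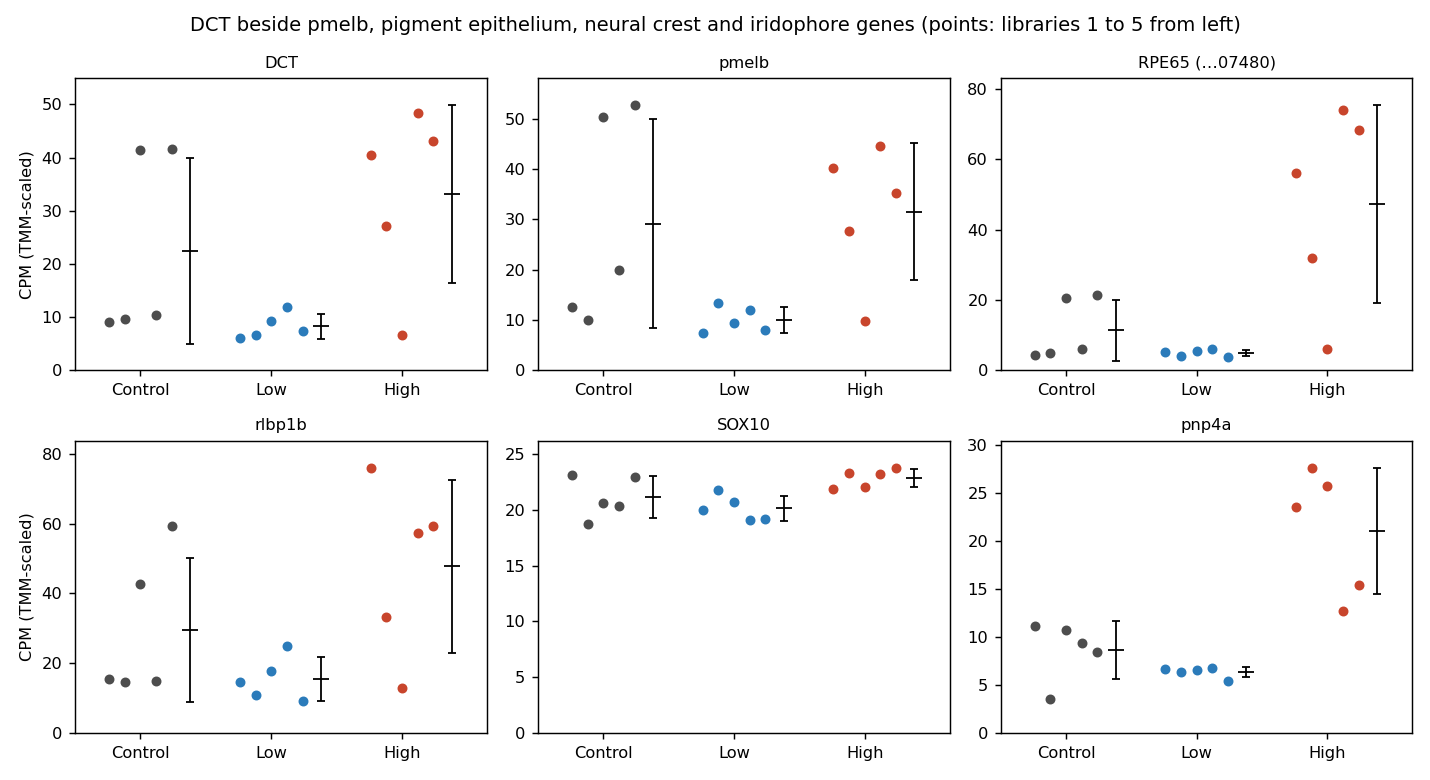
Level in CPM (vertical axes, linear) of DCT, pmelb, the pigment epithelium genes RPE65 and rlbp1b, the neural crest gene SOX10 and the iridophore gene pnp4a in libraries 1 to 5 of each group, with mean ± SD in black (n = 5). Control 3, Control 5 and 4 High libraries are the highest for DCT, pmelb and RPE65. Both pmelb and RPE65 were among the genes most like the melanin rows. SOX10, chosen after its values were seen, lies between 18.7 and 23.8 CPM, so the panels are a description only.

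Among the genes that specify melanophores, SOX10, the neural crest factor that switches on mitfa, had 18.7 to 23.1 CPM in Control, 19.1 to 21.8 in Low and 21.9 to 23.8 in High. Every High library was above every Low library, although by a log2 fold change of only 0.18 (SE 0.08, edgeR adjusted p = 0.19), and ranges did not overlap in this direction for 1.88% of all genes. Of 16 tested rows of the specification list 0 passed in each comparison. The rows with an unadjusted p below 0.05 numbered 2, 2 and 4 in Low against Control, High against Control and High against Low. Of all genes 9.53%, 15.8% and 21.9% did so in the same order. The list medians were -0.08, 0.08 and 0.15, and those of all genes 0, -0.02 and -0.01.

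Within that list the receptor gene KIT (ENSDARG00000043317), a copy of the gene that melanophores need for migration and survival, averaged 15.4 ± 2.17 CPM (Control), 14.6 ± 1.27 (Low) and 10.3 ± 2.44 (High; SD, n = 5). Its log2 fold change was -0.58 in High against Control (SE 0.15, edgeR adjusted p = 0.087). In High against Low it was -0.51 (SE 0.15, edgeR adjusted p = 0.085). The sign of KIT was opposite to that of MITF-03732 in both comparisons. It was the same as that of MITF-37833, at -0.61 and -0.39 in the same order. EDNRB (ENSDARG00000053498), an endothelin receptor row, had 0.362 ± 0.197, 0.118 ± 0.0685 and 0.408 ± 0.236 CPM and did not pass (edgeR adjusted p = 0.1 in High against Low). EDNRB was read at low depth, down to 0.0464 CPM in High 4, where OCA2 had that level from 1 read.

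The genes that build, supply and move melanosomes gave no passing row. In the list of melanosome biogenesis 0 of 28 tested rows passed in each comparison. The rows with an unadjusted p below 0.05 numbered 1, 3 and 5 in Low against Control, High against Control and High against Low. Of all genes 9.53%, 15.8% and 21.9% did so in the same order. The list medians were -0.04, -0.10 and -0.05, and those of all genes 0, -0.02 and -0.01. RAB32 is a small GTPase that delivers melanosome proteins. Its row ENSDARG00000029036 averaged 9.04 ± 0.735 CPM (Control), 7.53 ± 1.46 (Low) and 10.7 ± 1.26 (High; SD, n = 5; edgeR adjusted p = 0.064 in High against Low). Another RAB32 row in the list (ENSDARG00000041165) gave no call either. VPS39, a subunit of the HOPS tether, had a log2 fold change of -0.28 in High against Low (SE 0.09, edgeR adjusted p = 0.1). Of 6 transport rows 0 passed, with 1, 2 and 2 at an unadjusted p below 0.05, against the same shares of all genes. RAB27A, which links melanosomes to their motor, had 14.1 ± 1.36, 11.2 ± 2.06 and 15.3 ± 2.42 CPM in Control, Low and High (edgeR adjusted p = 0.093 in High against Low), and the myosin gene myo5ab a log2 fold change of 0.50 in the same comparison (SE 0.20, adjusted p = 0.16). Of 7 rows for tyrosine and copper supply 0 passed. In each comparison 0 had an unadjusted p below 0.05, against the same shares of all genes. Among them was a row of QDPR (ENSDARG00000040190), which regenerates the cofactor of tyrosine synthesis, at 0.33 in High against Low (SE 0.19, edgeR adjusted p = 0.32). Other QDPR rows in the list did not pass either. The copper importer SLC31A1 was at 0.34 in High against Low (SE 0.29, edgeR adjusted p = 0.49).

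Hormonal control of pigment showed no passing gene either. Of 15 tested rows for melanocortin, agouti and melanin-concentrating hormone signalling 0 passed. The rows with an unadjusted p below 0.05 numbered 0, 1 and 2 in Low against Control, High against Control and High against Low. Of all genes 9.53%, 15.8% and 21.9% did so in the same order. The list medians were 0.22, 0.0 and -0.29, and those of all genes 0, -0.02 and -0.01. In High against Low 5 rows lay above 0 and 10 below, while 51.7% of all genes were below 0. MC1R, the melanocortin receptor that raises melanin synthesis in melanophores, averaged 1.04 ± 0.295 CPM (Control), 1.33 ± 0.264 (Low) and 1.70 ± 0.329 (High; SD, n = 5), a difference of 0.70 on the log2 scale in High against Control (SE 0.23, edgeR adjusted p = 0.16). In High against Low the difference of MC1R was 0.35 (SE 0.23, edgeR adjusted p = 0.38). The accessory gene mrap2b had 0.712 ± 0.267, 1.11 ± 0.315 and 0.547 ± 0.147 CPM, with an edgeR adjusted p of 0.092 in High against Low. POMC, the precursor of melanocortins, averaged 28.7 ± 9.03 CPM (Control), 40.2 ± 10.8 (Low) and 26.5 ± 13.1 (High; SD, n = 5). It ranged from 7.99 CPM in High 4 to 55.7 in Low 4, and High 1 had 44.6 CPM. Its log2 fold change in High against Low was -0.60 (SE 0.36, edgeR adjusted p = 0.34).

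The other pigment cell types gave 1 passing gene. The iridophore gene pnp4a (ENSDARG00000057575), an enzyme of the purines that form reflecting plates, had 11.1, 3.55, 10.7, 9.33 and 8.39 CPM in Control 1 to 5. Low 1 to 5 had 6.70, 6.33, 6.54, 6.71 and 5.45 CPM, and in High 1 to 5 it had 23.5, 27.6, 25.7, 12.7 and 15.4 CPM. All High libraries were above all Control and Low libraries, High 3 included, as was so for 2.02% of all genes against Control and 1.88% against Low. It rose by 1.28 on the log2 scale in High against Control (SE 0.27, edgeR adjusted p = 0.048) and by 1.73 in High against Low (SE 0.27, adjusted p = 0.015). With 1 library left out the first call held in 2 of 10 fits, those without High 3 or High 4. It was lost in the other 8 (without any 1 Control library, High 1, High 2 or High 5), at adjusted p of 0.055 to 0.12, and the second held in 10 of 10. Of 12 iridophore rows this was the 1 that passed, and the list medians were -0.13, 0.01 and 0.31 in Low against Control, High against Control and High against Low. The medians of all genes were 0, -0.02 and -0.01. In Low against Control 0 iridophore rows passed. Those with an unadjusted p below 0.05 numbered 0, 3 and 3 in the same order of comparisons, against 9.53%, 15.8% and 21.9% of all genes. Of all genes 0.191% passed as higher in High against Control and 0.672% in High against Low. The iridophore marker ltk, a receptor kinase, had values of the other sign against Control, averaging 4.26 ± 3.12 CPM (Control), 1.69 ± 1.48 (Low) and 1.60 ± 1.51 (High; SD, n = 5). Its log2 fold change in High against Control was -1.40 (SE 0.74, edgeR adjusted p = 0.38), with 0 of 5 High libraries above the Control mean.

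Xanthophore markers, of the yellow pigment cells, gave 0 passing rows of 18 in each comparison. The rows with an unadjusted p below 0.05 numbered 2, 0 and 2 in Low against Control, High against Control and High against Low. Of all genes 9.53%, 15.8% and 21.9% did so in the same order. The receptor gene csf1ra averaged 16.5 ± 1.1 CPM (Control), 12.1 ± 3.14 (Low) and 14.2 ± 2.03 (High; SD, n = 5; edgeR adjusted p = 0.43 in Low against Control), and slc2a11b, a sugar transporter family gene, a log2 fold change of 0.92 in High against Low (SE 0.27, adjusted p = 0.084).

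Of 22 photoreceptor rows, 1 passed as higher and 1 as lower in both High comparisons, the cone genes ARR3 and GNAT2. Of all genes 0.191% passed as higher and 0.332% as lower in High against Control, and 0.672% and 1.04% in High against Low. In Low against Control 0 photoreceptor rows passed. In Low against Control, High against Control and High against Low, 3, 4 and 7 rows had an unadjusted p below 0.05. Of all genes 9.53%, 15.8% and 21.9% did so. In the same order the list medians were 0.0, -0.18 and -0.26. Rows above 0 numbered 11, 8 and 6, and rows below 0 numbered 11, 14 and 16. The shares of all genes below 0 were 49.6%, 52.1% and 51.7%, and their medians 0, -0.02 and -0.01. What part eye content has in the melanin values was not tested. ARR3 has another row (ENSDARG00000056511), which passed in neither High comparison. The ARR3 row described here (ENSDARG00000098475) rose by 1.90 in High against Low on the log2 scale (SE 0.22, edgeR adjusted p = 0.0024). It kept the call in 10 of 10 fits. GNAT2 was lower, at -0.88 (SE 0.17, adjusted p = 0.02), with the call in 7 of 10 fits and lost without Low 1, Low 3 or High 2, at adjusted p of 0.054 to 0.059. Against Control, ARR3 was higher by 1.29 (SE 0.22, adjusted p = 0.022; call kept in 6 of 10 fits, lost without Control 1, 2 or 4 or High 1) and GNAT2 was at -0.82 (SE 0.17, adjusted p = 0.042; call kept in 1 of 10, without High 3). In the digestive list 0 of 30 tested rows passed in each comparison. In Low against Control, High against Control and High against Low, 0, 1 and 3 rows had an unadjusted p below 0.05. The shares of all genes were those given above. The list medians were -1.4, 0.6 and 1.95 in that order, with 0, 24 and 29 rows above 0. The medians of all genes and their shares below 0 were also those given above. The smallest p belonged to FABP6 and CP. In High against Low FABP6 was at -5.99 (SE 2.63, edgeR adjusted p = 0.21) and CP at 0.97 (SE 0.42, adjusted p = 0.2). FABP6 had 164 CPM in Low 5 and 0.123 to 0.436 in the other Low libraries.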

How the data were processed

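The deposited file is a single matrix of raw read counts by the authors: whole numbers, 1 row for each Ensembl identifier and 1 column for each library, unscaled as far as the values show. Tools listed in the submitters' processing notes are FastQC, MultiQC, Trimmomatic and DESeq2, with no version; GRCz11 and mm10 are the builds listed. The sources used here name no aligner, counting program or strand setting. How reads shared by gene copies or overlapping genes were assigned is therefore not known here. Columns were matched to samples by the library names in the labels, and 15 lines naming no gene were left out. No pair of libraries was identical.

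Tests used R 4.3.3 and edgeR 4.0.16: filterByExpr left 22012 genes, libraries were scaled with TMM factors, and the robust quasi-likelihood model held 1 term for each of the groups, over 15 libraries. Adjusted p are Benjamini-Hochberg over all genes tested, with a threshold of 0.05. Each SE is |log2 fold change| over the root of F; log2 CPM used a prior count of 2. Alternatives used DESeq2 1.42.0 and limma 3.58.1.

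The members and the 10 further gene lists, 194 names matching 188 rows, were chosen with earlier results of these data known. Genes named were all members and, from each list, at most 4 passing members by smallest p or, where none passed, the 2 with the smallest p. The 8 genes with an informative symbol most like the members were added. Beyond the rule, SOX10, POMC, ltk and the other RPE65 rows were chosen after their values were seen. Transcript lengths, sequences and coordinates were not used here.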

Additional observations from a re-analysis of the deposited data

Results flagged for a closer look

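In each group of 5 libraries the highest and lowest value of a melanin gene row was checked for standing far from the rest by Dixon's criterion, in 30 groups. There were 2 such values, and chance gives about 1 in 20 groups. SLC45A2 stood at 2.05 CPM in Control 2, while Control 1, 3, 4 and 5 had 1.20 to 1.42 CPM. OCA2 had 0.410 CPM in High 5, from 10 reads, against 0.0464 to 0.115 CPM in the other High libraries.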

How the results depend on the processing

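In Low against Control and in High against Control 0 melanin rows passed under every alternative run. In High against Low 4 passed by limma voom with sample weights (MITF-03732, TYRP1-56151, DCT and SLC24A5, all higher), 1 by DESeq2 (DCT), 1 at an adjusted p of 0.10 (DCT), 0 to 2 with 1 library left out, and 0 under the others; the cause was not tested. Of 188 refitted values in each comparison, 188 kept their direction and side of the threshold in Low against Control, 170 in High against Control and 180 in High against Low. The reversed values ran from -0.29 to 0.20 and were all in High against Control, where none passed. TYRP1-29204 was at -0.00, and 0.02 with RLE factors, a 1 CPM filter or DESeq2, 0.01 with only the 2 groups fitted, and -0.12 to 0.20 with 1 library left out. Without Low 5, High 4 and High 5 together TYR was at -0.12, TYRP1-56151 at -0.14 and pmela at -0.29. With all libraries they were at 0.41, 0.14 and 0.07. With 1 library left out TYRP1-56151 ran from -0.02 to 0.35 and pmela from -0.08 to 0.32. SLC24A5 was at -0.02 with the digestive covariate and at 0.54 in the main fit. GNAT2 in Low against Control ran from -0.07 to 0.16 with 1 library left out. With the replicate number as a block 0 melanin rows passed in each comparison, and RPE65 in High against Low had an edgeR adjusted p of 0.095, GNAT2 0.066 there and 0.13 in High against Control, and pnp4a 0.13 in High against Control. Same-numbered libraries deviated together in 9 of 15 pairs (correlation over 0.1, range -0.55 to 0.61). Differently numbered libraries were not compared in this way, so the check cannot decide whether the numbers pair the samples. The main fit did not use the numbers. OCA2, with 72 reads in all, was removed from the main fit by the filter on low counts. It was tested without that filter and by DESeq2, and did not pass. SLC24A5 had 233 reads in all and MITF-37833 479.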
